A study of Mus musculus with 2 samples.

Results

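The genes described here are 10 components of the circadian clock, Nr1d1, Nr1d2, Per1, Per2, Per3, Dbp, Arntl, Clock, Cry1 and Cry2, in unfertilised oocytes of C57BL/6 mice. The Mul1 knockout sample was RNA of 123 oocytes and the wild-type sample RNA of 213 oocytes. Mul1 encodes a ubiquitin ligase of the mitochondrial outer membrane, and the labels do not say which part of it was deleted or how the oocytes were freed of other cells. RNA of each pool was amplified, given the Cy3 dye and measured on its own single-colour Agilent array. With 1 array per genotype every difference below compares a pair of arrays, no test was possible, and precision is limited by the number of arrays. The members were taken as the gene probes named for these genes. They are 25 of 56600 probes, of which 23 were well above background on both arrays and 2 were on neither, and all 10 genes are among the 22921 gene names so measured. The genes were picked with differences of these same arrays already known, so their differences are given as a description.

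The clock is a feedback loop of transcription. ARNTL (also called BMAL1) and CLOCK form a dimer that switches on genes carrying E-box sequences, among them the Per and Cry genes, Nr1d1, Nr1d2 and Dbp. PER and CRY proteins then repress the dimer, while the nuclear receptors REV-ERB alpha and REV-ERB beta, encoded by Nr1d1 and Nr1d2, repress Arntl through elements known as ROREs. In mouse tissues with a running clock, transcripts of Nr1d1, Nr1d2, the Per genes and Dbp peak in one part of the day, here called the Nr1d1-phase, and those of Arntl and Clock in an opposite part, here called the Arntl-phase, to which Cry1 is closer. Cry2 cycles weakly and was put in neither.

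The Nr1d1-phase genes were mostly lower on the knockout array, and the Arntl-phase genes lay nearer to 0. Each value given as a difference is log2 of knockout over wild type once both arrays had been scaled to the 75th percentile of their signals. Probes well above background on both arrays were averaged per gene. The 6 Nr1d1-phase genes had a median difference of -0.71, with a range of -3.30 to 0.24, and the 3 Arntl-phase genes one of -0.14, with a range of -0.27 to -0.09. The medians therefore lay -0.57 apart, and 5 of the 6 Nr1d1-phase genes, all but Per3, were lower than the lowest Arntl-phase gene, Clock. Per2 at -0.29 was barely below Clock at -0.27. With dim probes left out by a stricter limit, Clock was at -0.52 and so below Dbp at -0.50. Of the 10 members 9 were below 0, against 45.2% of all measured genes, and their median was -0.37, against 0.03 over all. Without Nr1d1 the distance between the medians was -0.36, and with every probe counted, dim ones included, it was -0.29.

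Nr1d1 and Nr1d2 were the members at least 2-fold lower on the knockout array, and none was at least 2-fold higher. Over all measured genes 1.37% were at least 2-fold lower and 2.92% at least 2-fold higher, and since the members were chosen from this contrast nothing is read from their count. By probe 3 of 23 were at least 2-fold lower, against 1.86% of all probes, and none was higher, against 2.72%. At 1.5-fold 3 members were lower, against 5.19% of all genes. The Nr1d2 gene value, at -1.01, lay at the 2-fold limit itself, so that 1 member in place of 2 passed with spike-in scaling, with normexp background correction or with the brightest probe of each gene.

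**Figure D1:**
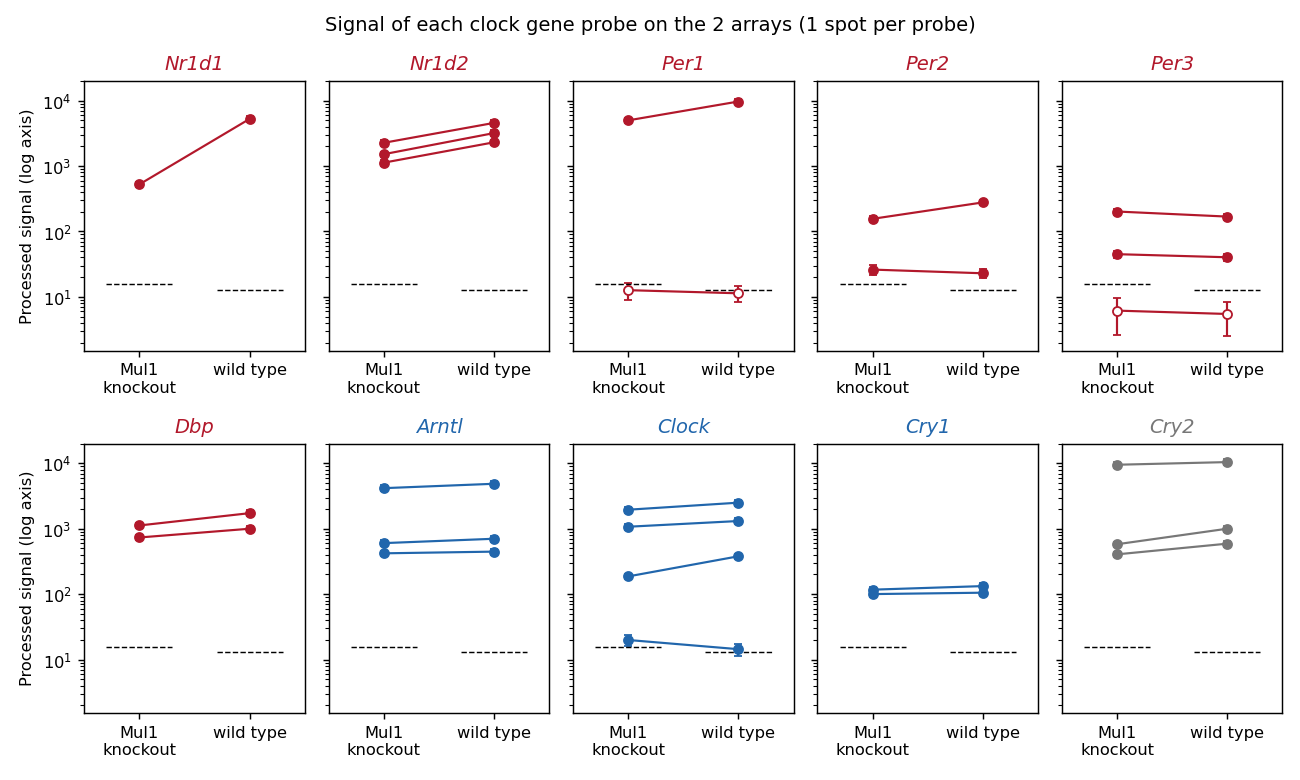
Processed signal (log axis) of every probe of the 10 clock genes on the Mul1 knockout array (left in each panel) and the wild-type array (right), with the signal error given by the scanner software as bars; open symbols are probes not well above background, and dashed lines mark the lowest signal well above background on each array. The single Nr1d1 probe has the steepest line and the 3 Nr1d2 lines run in parallel. The Per3 lines slope the other way, as do the dimmest lines of Per1, Per2 and Clock.

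Nr1d1 showed the largest difference of the 10. Its 1 probe, for the transcript NM_145434, is shown because the leading result rests on it. It lies on the minus strand of chromosome 11 in mouse build mm9, between chr11:98630526-98631028. That stretch of 503 bases exceeds the 60 bases of the probe, so the probe crosses a splice junction and reads spliced, exonic RNA.
Nr1d1 probe: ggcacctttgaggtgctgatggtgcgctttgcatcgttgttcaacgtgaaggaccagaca
The signal was 525 on the knockout array, against 5274 on the wild-type array. The log2 difference was -3.30, or 9.82-fold lower, and only 2 of the 22921 measured genes lay further down. The errors that the scanner software gave to these signals, 52.6 and 527, amount to 0.20 on the log2 scale of the difference. Among the 2293 genes of similar mean signal the central 95% of differences ran from -0.68 to 0.56. Even on the knockout array the probe stood clear of background, at 33.2 times the dimmest signal there that counted as well above it. Thra, the thyroid hormone receptor gene whose end overlaps that of Nr1d1 on the opposite strand, differed by 0.05, 0.10 and -0.10 at its 3 probes well above background on both arrays. By size of difference, the genes with a RefSeq symbol nearest to Nr1d1 were the stress-response factor gene Atf3 at -3.43, Eid3 at -2.96 and Gnal at -2.61, a likeness that rests on the same 2 arrays.

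Nr1d2, the paralog of Nr1d1, had 3 probes at the end of the gene, in chr14:19036568-19037312 of mm9. The probe for BC096461 read 1520 on the knockout array, against 3200 on the wild-type array. The probes for NM_011584 read 2271 and 1128 on the knockout array, against 4578 and 2312 on the wild-type array. The 3 differences ran from -1.04 to -0.98, a spread of 0.06 between probes that read the same gene in the same pair of samples. The Nr1d1 difference was thus -2.29 further down than that of Nr1d2, a distance that multiplying an array by one factor cannot change.

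The 3 Period genes, whose proteins are the repressors that pair with the cryptochromes, did not move together. Per1 had a signal of 5004 on the knockout array, against 9726 on the wild-type array, at its probe for NM_011065 in chr11:68923364-68923423. That is a difference of -0.93, or 1.90-fold lower. Genes of similar signal had their central 95% between -0.50 and 0.51. The other Per1 probe, for AK081813, was not well above background on either array. Per2 was dim and its probes disagreed. The probe for the end of the transcript, in chr1:93312595-93312654, read 156 on the knockout array, against 278 on the wild-type array, a difference of -0.80. The upstream probe, in chr1:93336538-93336597, read 26.1 on the knockout array and 22.9 on the wild-type array, only 1.65 and 1.78 times the dimmest signal above background, and differed by 0.22 with an error of 0.33. The gene value of -0.29 averages the 2, and the brighter probe alone puts Per2 between Per1 and Dbp. Per3 was the member above 0, at 0.24. Its probes read 202 and 45.0 on the knockout array, against 169 and 40.3 on the wild-type array, differences of 0.29 and 0.19. The scanner software's errors on the same scale were 0.21 and 0.25, about as large as the differences.

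Dbp, which encodes a PAR bZIP activator that drives D-box genes and is a widely used readout of ARNTL and CLOCK activity, was lower at both probes. They read 1124 and 736 on the knockout array, against 1734 and 1002 on the wild-type array. The differences were -0.59 and -0.41 with an error of 0.20 each, and the gene value of -0.50 lay inside the central 95% of genes of similar signal, -0.69 to 0.64.

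**Figure D2:**
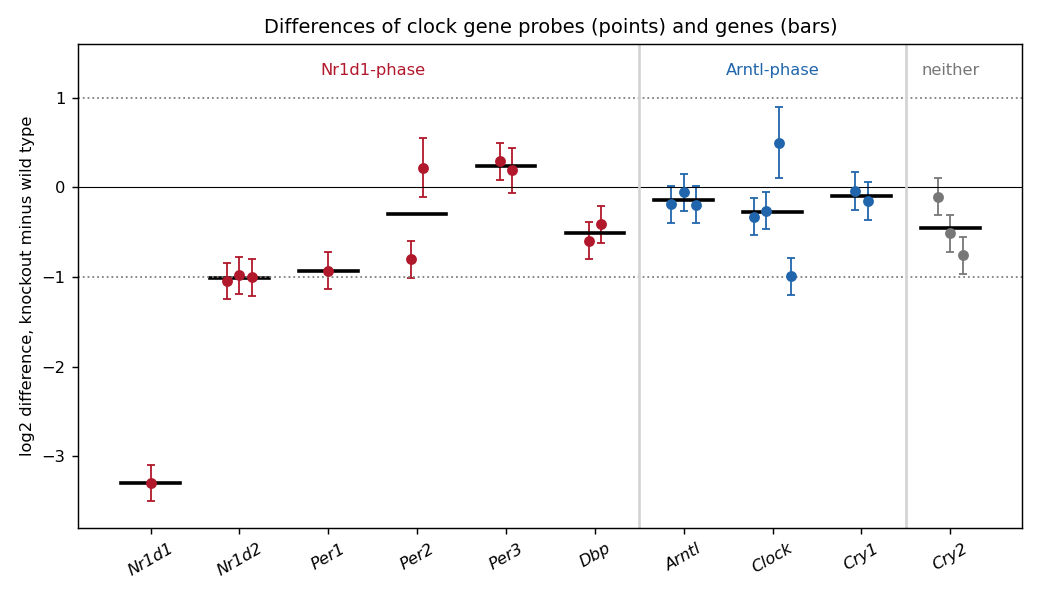
Log2 difference, knockout minus wild type, of each probe well above background on both arrays (points, with the scanner software's error) and of each gene (bars), by phase; dotted lines mark 2-fold. Nr1d1 lies at -3.30 and Nr1d2 at -1.01, while the gene values of Arntl and Cry1 are -0.14 and -0.09.

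Of the activator genes, Arntl differed by no more than the scanner software's error, and Clock was lower at 3 of 4 probes. Arntl read 4183, 604 and 421 on the knockout array, against 4882, 704 and 447 on the wild-type array. The differences were -0.19, -0.19 and -0.05, each no larger than the scanner software's error of 0.20. That error does not cover differences between pools. The probe with the middle signal is shown because, like that of Nr1d1, it crosses a splice junction, here on the plus strand of chr7:120435023-120436706 in mm9, so that the genes can be compared on spliced RNA.
Arntl probe: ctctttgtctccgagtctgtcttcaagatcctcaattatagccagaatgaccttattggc
This pair of junction probes differed by -3.30 for Nr1d1 and -0.19 for Arntl.

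Clock had 4 probes that did not agree. The 2 at the end of the gene, in chr5:76639992-76641436, read 1958 and 1075 on the knockout array, against 2510 and 1315 on the wild-type array, differences of -0.33 and -0.26. The probe for AK030352, furthest upstream at chr5:76664578-76664637, read 187 on the knockout array, against 380 on the wild-type array, a difference of -0.99. A junction-crossing probe of 19.9 on the knockout array and 14.4 on the wild-type array, close to the limit of detection, differed by 0.50 with an error of 0.40. With dim probes left out by a stricter limit the gene value of -0.27 became -0.52.

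The cryptochromes, light-independent repressors in mammals, differed from each other by 0.36. Cry1 read 117 and 100.3 on the knockout array, against 133 and 105 on the wild-type array, and its gene value was -0.09, or 0.04 with spike-in scaling. Cry2 was lower at -0.46, but its probes did not agree. The probe for the RefSeq transcript NM_009963, at chr2:92243807-92243866, read 9542 on the knockout array, against 10478 on the wild-type array, a difference of -0.10. The probes for the Ensembl transcripts ENSMUST00000111278 and ENSMUST00000125488, further upstream on the minus strand, read 406 and 580 on the knockout array, against 592 and 1003 on the wild-type array, with differences of -0.51 and -0.76. Annotation of mm9 was not used here, so whether those probes lie in exons or introns is not stated.

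Across all members, 19 of 23 probes well above background were below 0, against 46.7% of all such probes. Of the 4 above 0, those of Per2 and Clock and one of Per3 were among the dimmest member probes, at 1.12 to 3.14 times the detection limit set by that dimmest signal, and the remaining Per3 probe was at 12.8 times on the knockout array and 13.1 times on the wild-type array. The part of low signal in the direction of these probes was not tested.

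**Figure D3:**
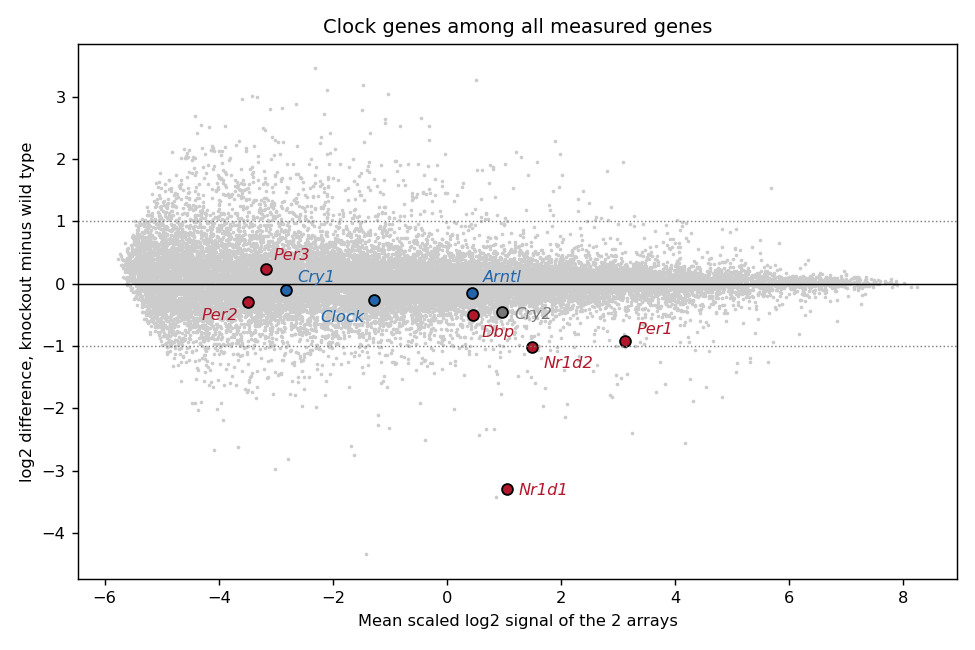
Log2 difference, knockout minus wild type, against mean scaled log2 signal of both arrays for all 22921 measured genes (grey), with Nr1d1-phase genes in red, Arntl-phase genes in blue and Cry2 in grey; dotted lines mark 2-fold. Nr1d1 lies far below most genes of its signal, Nr1d2 and Per1 lie at the lower edge of theirs, and the other members lie inside the cloud.

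Promoters were searched for the clock's known elements because the phases are known to be driven through different ones. The sequences are RefSeq's, build GRCm38.p6, and cover 250 bases before to 50 after each gene start. They were found for 9 of the 10 genes, with 13 starts in all. Per2 had no such sequence and was not searched. Motifs were searched on both strands as the E-box CACGTG, the E'-box CACGTT, the D-box TTATGTAA or TTACGTAA, the RORE core TAGGTCA and the cAMP response element TGACGTCA. A match describes the letters and is neither a bound site nor a cause. The upstream parts of Nr1d1, the member furthest down, of Per1, a member nearly 2-fold lower, and of Per3, the member above 0, are shown with matches in capitals.
Nr1d1, minus strand of chr11:98775378-98775627: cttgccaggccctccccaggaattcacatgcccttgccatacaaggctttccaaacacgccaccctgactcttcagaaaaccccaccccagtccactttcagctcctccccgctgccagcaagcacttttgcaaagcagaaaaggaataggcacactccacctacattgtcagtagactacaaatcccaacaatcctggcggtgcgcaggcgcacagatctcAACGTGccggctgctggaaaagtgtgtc
Per1, plus strand of chr11:69098699-69098948: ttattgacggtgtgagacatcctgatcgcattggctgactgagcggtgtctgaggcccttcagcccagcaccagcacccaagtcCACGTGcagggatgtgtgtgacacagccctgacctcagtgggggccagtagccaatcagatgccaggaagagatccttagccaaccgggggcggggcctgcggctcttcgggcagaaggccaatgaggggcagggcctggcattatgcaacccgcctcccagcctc
Per3, minus strand of chr4:151044666-151044915: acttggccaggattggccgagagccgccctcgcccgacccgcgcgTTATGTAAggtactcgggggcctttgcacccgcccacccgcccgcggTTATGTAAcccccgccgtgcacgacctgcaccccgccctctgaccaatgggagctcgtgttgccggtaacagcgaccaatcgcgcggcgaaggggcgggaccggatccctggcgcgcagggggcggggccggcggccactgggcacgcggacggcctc
Nr1d1 holds an E'-box (read as AACGTG) 28 to 23 bases before its start, and the first Per1 start holds an E-box 166 to 161 bases before it. Per3 holds 2 D-boxes, 205 to 198 and 158 to 151 bases before its start, and neither E-box form. Nr1d2, Dbp and Clock had no match in this window. The shorter sites below, with 10 flanking bases on each side, show the remaining members with a match.
Arntl, RORE core: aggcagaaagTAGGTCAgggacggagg
Cry1, E-box: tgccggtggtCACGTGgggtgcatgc
Cry1, E'-box: acacttcagaAACGTGaggtgccggt
Cry2, E'-box: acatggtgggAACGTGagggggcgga
The Arntl site lies 31 to 37 bases after its second start. E-box forms occur in members of both phases, Cry1 holding one of each. Of all 32851 RefSeq promoter windows, 7.15% hold the E-box, 4.69% the E'-box, 1.06% a D-box, 2.61% the RORE core and 1.79% the cAMP response element, which no member's window held.

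Beyond the members, 60 other clock genes were listed by role, and 55 of them were well above background on both arrays. Their median difference was -0.08, with 32 below 0, against 45.2% of all measured genes. At least 2-fold lower were 4, against 1.37% of all genes, and 1 was at least 2-fold higher, against 2.92%. The lower ones were Nfil3, Bhlhe40, Rora and Myc, and the higher one was Ccnd1. On the spike-in scale, which put the median of all genes at 0.17, no gene of the 4 passed 2-fold, at -0.94, -0.92, -0.86 and -0.94 in that order.

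The core partners, of which 6 of 11 measured were below 0 with a median of -0.32, held 3 of these genes. Nfil3, a repressor at D-boxes that opposes DBP, read 13099 on the knockout array, against 28340 on the wild-type array, as the geometric mean of 2 probes at -1.11 and -1.05. Bhlhe40, a repressor at E-boxes, read 11098 on the knockout array, against 23596 on the wild-type array, a difference of -1.06 at 1 probe. Rora, an activator at the ROREs where REV-ERB proteins repress, read 1107 on the knockout array, against 2269 on the wild-type array, just past 2-fold over probes from -1.47 to -0.75. It was 2-fold lower in 7 of 11 other settings. Nfil3 belongs with Arntl by phase and Bhlhe40 with Nr1d1, so genes at least 2-fold lower occurred in both phases. With wider phase lists, whose genes are not listed here, the distance between the phase medians was -0.36. That change was not traced to single genes. The DBP relative Tef was at -0.50, the E-box repressor Ciart at -0.32, and the CLOCK paralog Npas2 at 0.08, while Nono was at 0.17 and Tipin at 0.22. Rorb, Bhlhe41 and Hlf were not well above background on both arrays.

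Genes that modify, degrade or assist clock proteins included none at least 2-fold apart. In lists this short that is near the share over all genes, 1.37% lower and 2.92% higher. Among 18 kinases, phosphatases and ligases the median was -0.09 (0.05 on the spike-in scale). The casein kinase genes that mark PER for decay, Csnk1d and Csnk1e, were at -0.09 and 0.03. The extremes were Fbxl21, Prkaa2 and Csnk1a1 at -0.54, -0.53 and -0.38, and Prkaa1, Csnk2b and Ddb1 at 0.19, 0.10 and 0.08. The Fbxl21 value rests on 1 probe close to the detection limit, at 18.7 on the knockout array and 27.7 on the wild-type array, and ran from -0.68 to -0.11 over other settings. Among 13 measured co-regulators the median was 0.03 (-0.02 after quantile normalisation or loess), and the corepressor genes through which REV-ERB proteins act, Ncor1 and Hdac3, were at -0.06 and 0.15. The demethylase gene Kdm5a was lowest at -0.84, then the deacetylase gene Sirt1 at -0.58 and Crebbp at -0.25, while Nrip1 was highest at 0.31, a mean of probes from -0.27 to 0.70 that was -0.12 in 1 other setting, before Kat2b at 0.23 and Parp1 at 0.18.

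Targets and outputs of the clock did not share a direction. Of 6 measured genes known as REV-ERB targets 5 were below 0, among them Nfil3 at -1.08, Clock, Arntl and Cry1, and Npas2 was above it. The median of these 6 was -0.21 (-0.07 on the spike-in scale, with 4 below 0), and 3 of them are members described above. Among 12 measured outputs the median was -0.07 (0.07 on the spike-in scale). The growth regulator gene Myc was at -1.08, the steroidogenic gene Star at -0.96 and Lonrf3 at -0.58, against 1.34 for the cyclin gene Ccnd1, 0.25 for the haem synthesis gene Alas1 and 0.12 for Cdkn1a. Ccnd1 read 823 on the knockout array and 333 on the wild-type array.

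**Figure D4:**
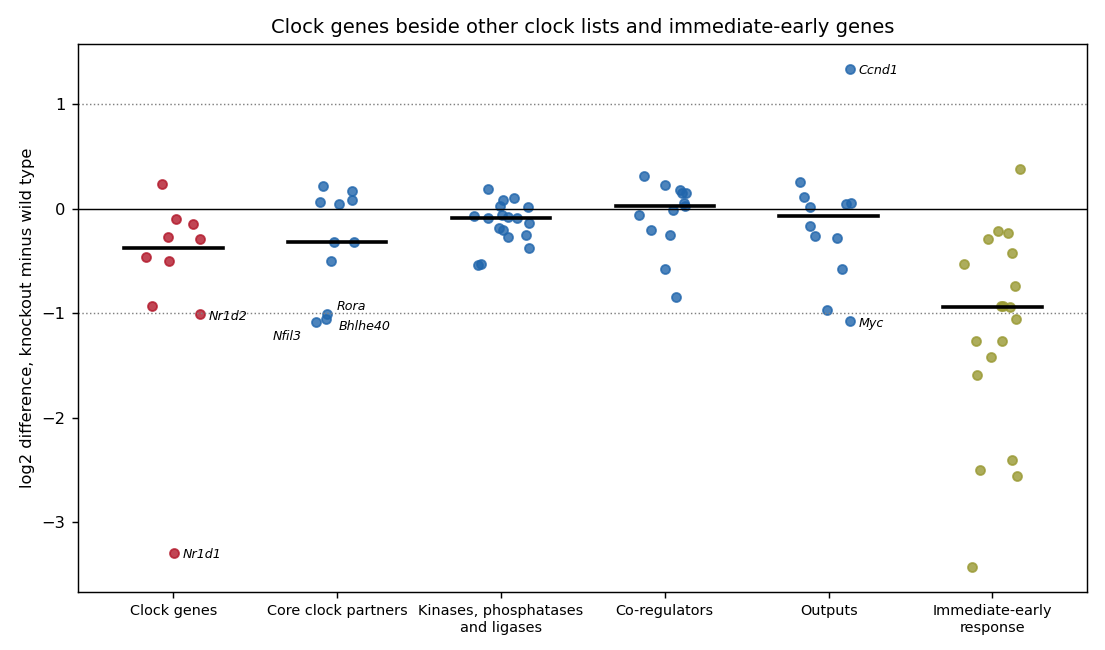
Log2 difference, knockout minus wild type, of the 10 clock genes, of 4 lists of other clock genes and of immediate-early genes (points), with each list's median (bars); dotted lines mark 2-fold and names are given for clock genes at least 2-fold apart. The medians run from -0.94 for immediate-early genes to 0.03 for co-regulators.

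Several clock genes, among them Per1, Nfil3 and Bhlhe40, are also known to be induced within minutes to hours by growth factors or cAMP, and genes of that immediate-early response were lower on the same array. All 19 listed were measured. Of these 18 were below 0, against 45.2% of all measured genes, and 9 were at least 2-fold lower, against 1.37%. The median was -0.94 (-0.80 on the spike-in scale), with extremes of -3.43 for Atf3 and 0.38 for Egr2. The summed signal was 205570 on the knockout array, against 407880 on the wild-type array. This list was chosen with earlier results of these arrays known. The part of these genes in the clock differences was not tested.

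Of 12 oocyte markers, 11 were well above background, with Figla the exception. They summed to 107130 on the knockout array, against 115770 on the wild-type array, with a median difference of 0.16. Gdf9, the brightest of them, read 61515 on the knockout array and 68126 on the wild-type array. All 14 cumulus and granulosa markers were present as well, with a summed signal of 201140 on the knockout array, against 194630 on the wild-type array, and a median difference of 0.15. They ran both ways, with Has2 at 1.16 and Ptx3 at 0.95, and Star at -0.96 and Amh at -0.81. Amh was dim, at 35.4 on the knockout array and 63.3 on the wild-type array, and ran from -0.87 to -0.31 over other settings. All 11 macrophage markers were higher on the knockout array, from 0.60 for Csf1r to 2.54 for Mrc1, 10 of them at least 2-fold, and summed to 34370 there, against 11636 on the wild-type array. All 5 measured of 6 red cell markers were at least 2-fold lower (4 with spike-in scaling or normexp) and summed to 19225 on the knockout array, against 59852 on the wild-type array. The 5 measured of 7 neutrophil markers summed to 6958 on the knockout array and 2059 on the wild-type array, with S100a9 at 3.27 and S100a8 at 3.05 but Elane at 0.06 and Mpo at -0.35. The 7 oviduct and endothelial markers summed to 71726 on the knockout array and 26505 on the wild-type array. Most of that was the oviduct gene Ovgp1, at 69104 on the knockout array and 24266 on the wild-type array. The endothelial genes Pecam1, Cdh5 and Kdr were at -0.04, 0.11 and 1.13. The Kdr value rests on 1 of its 3 probes and ran from 0.01 to 1.27 over other settings. The 6 theca and stroma markers summed to 5810 on the knockout array and 4846 on the wild-type array, with 5 above 0 but Dcn at -0.94. Which of these cells carried the clock transcripts cannot be read from RNA of a pool, fewer cells of a type and less RNA per cell cannot be told apart, and the part of these cells in the clock differences was not tested. Mul1 itself read 1074 on the knockout array, against 3353 on the wild-type array, at its brighter probe, a difference of -1.61, and whether that probe lies in the deleted part is not known. The time of day at which oocytes were collected is not in the labels, so genotype and hour of collection cannot be told apart in these values.

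**Figure D5:**
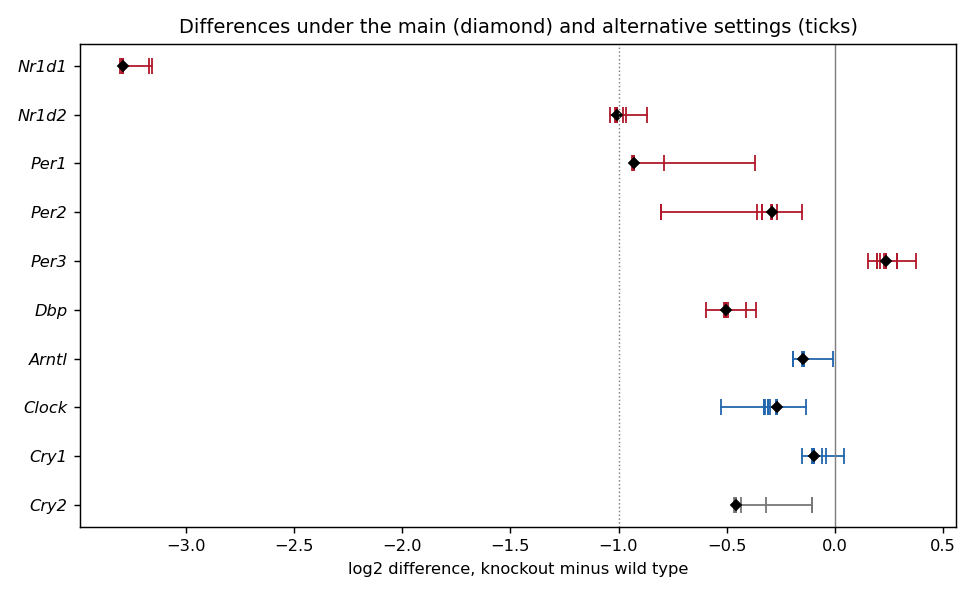
Log2 difference, knockout minus wild type, of each clock gene in the main setting (diamond) and under 12 other settings (ticks, joined by a line); the dotted line marks 2-fold lower and the solid line 0. Nr1d1 stays between -3.31 and -3.16, Nr1d2 crosses 2-fold, and Cry1 crosses 0.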

How the data were processed

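The authors deposited 1 scanner table per array with spot intensity on a linear scale. Per the file headers it was written by Agilent Feature Extraction 10.7.1.1 for design 074809 with positions on mm9, with spatial and multiplicative detrending switched on, and not normalised between arrays. A different version, 9.5.1.1, is given in the submitters' processing notes. The authors' deposited series-wide table of intensity is quantile normalised, since its sorted columns differ by at most 0.0243%, with a median of 57.95 in each.

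Spots with outlier flags were left out (84 on the knockout, 88 on the wild-type array), log2 of the processed signal was taken, and each array's 75th percentile, a signal of 790 on the knockout and 808 on the wild-type array, was subtracted. Of 56600 probes, 64.5% on the knockout and 66.0% on the wild-type array were well above background, none was saturated, and the lowest such signal was 15.8 and 12.9. For 286 probes printed at least 8 times, the SD of the difference from spot to spot was 0.04 at the median and 0.20 at most, which covers spot noise only. Members were named by the gene name in the tables, which RefSeq accessions and synonyms did not extend.

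Calls were by size, at least 2-fold, with no test at 1 array per genotype. The members and lists were chosen with earlier results of these arrays known. Named are all members, list genes at least 2-fold apart, up to 3 extremes of each list (fewer where a side holds fewer), Thra, Mul1, Gdf9, the extreme immediate-early genes and the 3 genes nearest to Nr1d1. Csnk1d, Csnk1e, Ncor1, Hdac3, Tef and Ciart were added for their roles after their values were seen. Some list genes are not reported here. Alternatives scaled the arrays on detected probes' median or on 8 spike-in probes, or used quantile normalisation, loess (span 0.3), normexp (limma 3.58.1, offset 50), the authors' table, no filter on dim probes or one at 4 times the lowest signal, the brightest probe, unused flags and naming by accession. The calculation was checked on simulated data.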

Additional observations from a re-analysis of the deposited data

How the results depend on the processing

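No paired analysis was possible because each genotype has 1 array. For the same reason no replicate could be left out. The distance between the phase medians, -0.57, kept its sign in 17 of 17 alternatives. This distance cannot change when a whole array is rescaled, and naming by accession added no probe, so those settings could not alter it. It moved by more than the largest SD between spots without a filter on dim probes (-0.29), by means (-0.80), with wider phase lists (-0.36), and, chosen after seeing the data, without Nr1d1 (-0.36). The count of members at least 2-fold lower, 2 in the main setting, was 1 on the spike-in scale, with normexp and with the brightest probe, and 3 at 1.5-fold. Nr1d1 was at least 2-fold lower in 12 of 12 alternatives, though with 1 probe the settings that filter or choose probes left its value unchanged. Nr1d2 was at least 2-fold lower in 9 of 12, at -0.87 on the spike-in scale. Per1 became -0.37 without a filter on dim probes, through a probe at background. Without that filter the core partner median became 0.06 over 14 genes. Of all genes, the number at least 2-fold lower was 313 in the main setting, 201 on the spike-in scale, 116 with normexp, 194 with the stricter filter and 1330 with none. The number higher was 670 in the main setting, 909, 212, 339 and 2773 in the same order. Of genes apart, 68.2% were higher in the main setting and 81.9% on the spike-in scale. Signals near background limit Per2, Per3 and Clock, and a single spot on each array limits Nr1d1 and Per1.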
